A study of Sus scrofa with 6 samples.

Results

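The microRNA loci ssc-mir-212 (ENSSSCG00000019896) and ssc-mir-221 (ENSSSCG00000018698) were followed in neonatal porcine Sertoli cells (NPSC) with and without human complement. They are 2 of the 25149 Ensembl pig genes counted in each of the 6 libraries. The study had listed both among its differentially expressed genes, as identified by GENEWIZ, its sequencing provider, and not by Advaita iPathwayGuide. Both were picked for that listing, that is, on the same contrast of complement NPSC with baseline NPSC. Their own difference between the conditions is therefore given as a description, with no p, and tests are used for their neighbours and for other genes.

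Sertoli cells are the supporting cells of the seminiferous tubule, and these were isolated from the testes of wild-type Duroc-Landrace pigs 3 to 5 days old. The testes came from 3 litters, and all plates were kept overnight in DMEM with fetal bovine serum. Baseline NPSC (Media in the labels, 3 libraries) then received DMEM, and complement NPSC (3 libraries) received an equal volume of pooled human AB serum with its complement preserved, for 90 min. The added serum holds many components besides complement, and their shares in any difference cannot be told apart here. The study's methods give 3 plates per condition, so the libraries of a condition were separate cultures. Neither they nor the labels say which litter a plate came from, so the spread between libraries may be that of plates rather than of animals.

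A microRNA gene is transcribed as a long primary transcript, from which the nuclear enzyme DROSHA cuts a hairpin and the cytoplasmic enzyme DICER1 then releases the short mature strand that guides an Argonaute protein to its target mRNAs. In mammals, miR-212 is encoded beside miR-132, and these share a seed, the stretch that pairs with targets. Their primary transcript is a known target of the transcription factor CREB and is induced by gonadotropins in ovarian granulosa cells. MiR-221 is encoded beside miR-222, also with a shared seed. This pair is regulated by NF-kB and AP-1 in several cell types, represses the cell cycle inhibitor CDKN1B and the receptor KIT, and helps to keep mouse spermatogonia undifferentiated. The counts here come from paired reads far longer than a mature microRNA, so they were read as signal of primary transcripts. The methods list library kits with poly(A) selection, with ribosomal RNA depletion and for small RNA together, and do not say which of them gave these counts. The counts say nothing of mature microRNA levels.

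The row of mir-212 covers 62 bp on the minus strand of chromosome 12, from 50016161 to 50016222, and that of mir-221 covers 70 bp on the minus strand of chromosome X, from 45274873 to 45274942. Each is a single exon. The coordinates are those of the deposited files, whose genome build is not given in the sources used here. Any read that touches so short a row may also come from the transcript around it, and a level per length of such a row is not comparable with that of a long mRNA.

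The libraries held 3641518 to 8371923 counts on genes, and every complement library had fewer than every baseline library. Of 11 Sertoli cell markers 8 were matched in the files and all 8 were counted (SOX9, WT1, GATA4, INHA, FSHR, DHH, CLDN11 and VIM), with a summed level of 3489 to 4850 CPM (read counts normalized to the TMM-adjusted library size) in baseline NPSC and 2799 to 3677 CPM in complement NPSC. Most of that sum was VIM, an intermediate filament gene of many cell types. Singly, 0 of the 8 markers were called by edgeR or DESeq2, but 4 (INHA, GATA4, WT1 and CLDN11) lay lower in complement NPSC without overlap, against 8.14% of all tested genes. At an unadjusted p under 0.05 in edgeR, 5 were lower and 1, DHH, was higher, against 4.28% and 10.9% of all tested genes. The median log2 fold change of the 8 was −0.61. INHA, which encodes the inhibin alpha subunit, had a log2 fold change of −0.73 (adjusted p = 0.269, edgeR), and GATA4, a gonadal transcription factor, had one of −0.76 (adjusted p = 0.267, edgeR). Both were called lower with a replicate block, where 0.794% of all tested genes were, and GATA4, WT1 and CLDN11 without complement replicate 3, where 2.12% were. Of 5 Leydig cell markers 4 were matched, with 936 to 1139 CPM in baseline NPSC and 713 to 760 CPM in complement NPSC. The 3 tested (CYP17A1, INSL3 and LHCGR) also lay lower in complement NPSC without overlap, against 8.14% of all tested genes. Their median log2 fold change was −0.51, and 0 were called by edgeR or DESeq2. Summed levels over all libraries were 1026 to 2369 CPM for peritubular myoid cells (4 of 4 matched), 256 to 608 for endothelial cells (3 of 5), 32.0 to 58.8 for macrophages (2 of 4) and 16.2 to 30.3 for germ cells (2 of 4), with overlap between the conditions. CYP11A1 (Leydig) and MYH11 (myoid) had 0 counts in every library. The part of cell composition in the results that follow was not tested. In bulk samples, fewer cells of a type and less RNA per cell cannot be told apart. Counts on 48 olfactory receptor genes, which are expressed in nasal epithelium, came to 1.51 ± 0.555 CPM per kb of exon (SD, n = 3) in baseline NPSC and 3.32 ± 1.58 (SD, n = 3) in complement NPSC, scaled to the library total. The exact two-sided permutation p was 0.2, where 3 libraries against 3 cannot go below 0.1. Complement replicates 1 and 2 were highest, at 4.01 and 4.43, and complement replicate 3, at 1.51, lay within the range of baseline NPSC (1.18 to 2.15). Its part in other results was not tested beyond fits with it as a covariate and without complement replicates 1 and 2.

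All 3 complement NPSC libraries held more mir-212 than the highest of the baseline NPSC libraries. In baseline NPSC it had 28, 5 and 8 counts, which is 4.06, 0.774 and 1.05 CPM for replicates 1, 2 and 3. In complement NPSC it had 49, 33 and 73 counts, or 10.9, 7.87 and 12.7 CPM. Baseline replicate 1 stood above the other baseline libraries: its 95% Poisson interval for counting error was 2.7 to 5.87 CPM, against 0.251 to 1.81 CPM in replicate 2 and 0.455 to 2.08 CPM in replicate 3. The lowest complement library was still 1.94 times the highest baseline library. The means were 1.96 ± 1.82 CPM (SD, n = 3) and 10.5 ± 2.43 CPM (SD, n = 3), a ratio of 5.34, and the fitted log2 fold change was 2.41. That value rests in part on baseline replicate 1, and it was 3.47 without this library.

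For mir-221 the baseline libraries were more even than for mir-212. Baseline NPSC had 8, 7 and 10 counts, or 1.16, 1.08 and 1.32 CPM, and the highest of these was 1.22 times the lowest. Complement NPSC had 20, 22 and 53 counts, or 4.45, 5.25 and 9.21 CPM. The groups did not overlap, and the lowest complement library was 3.38 times the highest baseline library. The means were 1.19 ± 0.119 CPM (SD, n = 3) and 6.30 ± 2.55 CPM (SD, n = 3), a ratio of 5.31, with a fitted log2 fold change of 2.40. Complement replicate 3 had the highest value of its group, with a 95% Poisson interval of 6.90 to 12 CPM that lay just above that of replicate 1 (2.72 to 6.87 CPM) and overlapped that of replicate 2 (3.29 to 7.95 CPM). The log2 fold change was 1.98 without it.

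**Figure D1:**
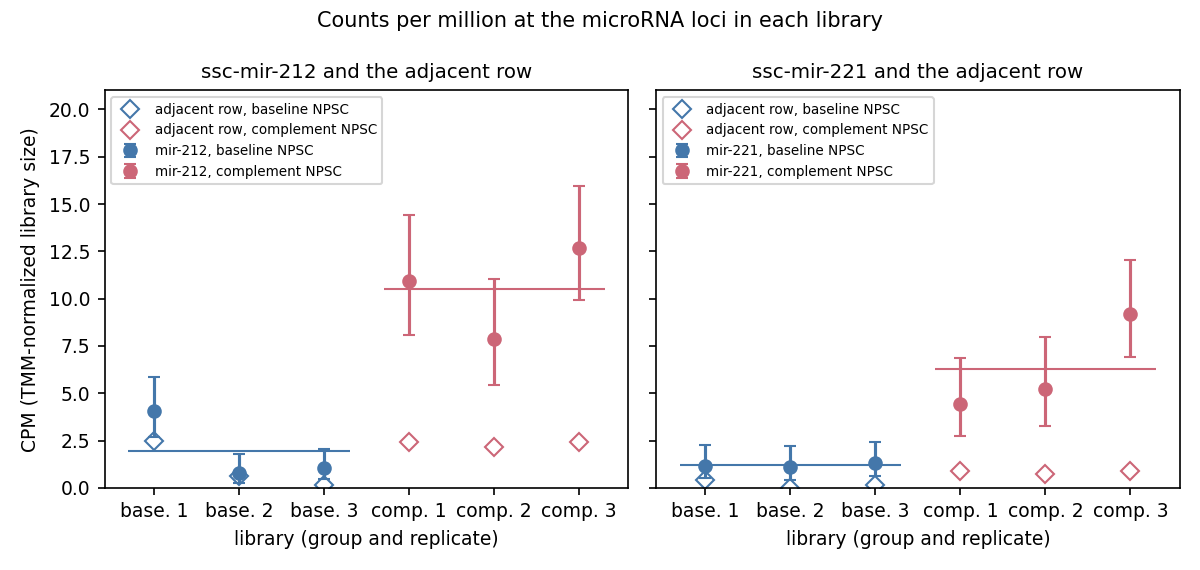
CPM (read counts normalized to the TMM-adjusted library size) of ssc-mir-212 (left) and ssc-mir-221 (right) in each of the 6 libraries, with 95% Poisson intervals for counting error as bars, group means as lines, and the adjacent short row as open diamonds. Complement NPSC lie at 7.87 to 12.7 CPM for mir-212 and 4.45 to 9.21 CPM for mir-221, above every baseline NPSC library.

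Complement NPSC lay above baseline NPSC without overlap in 8.95% of all 17512 tested genes. A gene was called where its adjusted p was under 0.05 and its log2 fold change beyond 0.7 in size. The edgeR quasi-likelihood test called 18 genes (0.103%), with 0 of the 2 loci among them, 0.0914% of all tested genes being higher and 0.0114% lower in complement NPSC, and the DESeq2 Wald test called 64 (0.424%), with both loci among them. Since the loci were chosen on this contrast, nothing is read from these counts. The total behind each locus was small, with 41 counts of mir-212 in baseline NPSC and 155 in complement NPSC, and 25 and 95 counts of mir-221. In none of these libraries was either locus at 0. With complement replicates 1 and 2 left out, the log2 fold changes were 2.65 for mir-212 and 2.91 for mir-221, and with the olfactory receptor density as a covariate they were 2.32 and 2.90.

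The ratio of mir-212 to mir-221 counts was 3.5, 0.714 and 0.8 in baseline replicates 1, 2 and 3 and 2.45, 1.5 and 1.38 in the complement replicates. The ranges of the ratio in the conditions overlap. Per kb of row, mir-212 averaged 31.7 CPM in baseline NPSC and 169 CPM in complement NPSC, and mir-221 averaged 17 and 90.0 CPM. On this scale mir-212 was the higher locus in every complement library and in baseline replicate 1, and the lower one in the other baseline libraries.

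Next to each locus lies another short row on the same strand. Downstream of mir-212, after a gap of 349 bp, ENSSSCG00000019370 covers 101 bp, from 50015711 to 50015811 on chromosome 12. The name tables pair no symbol with this identifier. In RefSeq's pig table (Sscrofa11.1) the gene next to MIR212 on this side is MIR132. ENSSSCG00000019370 had 17, 4 and 1 counts in baseline NPSC (2.46, 0.619 and 0.132 CPM) and 11, 9 and 14 in complement NPSC (2.45, 2.15 and 2.43 CPM). Baseline replicate 1 was thus as high as the complement libraries, so that the groups overlap, whereas the other baseline libraries were lower. The log2 fold change was 1.13 with an SE of 0.72 (adjusted p = 0.423, edgeR). Without baseline replicate 1 it was 2.61 (adjusted p = 0.0928, edgeR), and the alternatives gave adjusted p between 0.0928 and 1.00. The same library thus held the highest baseline value of mir-212 and of the row beside it. The ratio of mir-212 to ENSSSCG00000019370 counts was 1.65, 1.25 and 8 in baseline NPSC, against 4.45, 3.67 and 5.21 in complement NPSC, which overlap as well.

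Upstream of mir-221, after a gap of 670 bp, ENSSSCG00000018497 covers 80 bp, from 45275613 to 45275692 on chromosome X, again without a symbol in the name tables. RefSeq places MIR222, also 80 bp long, on this side of MIR221. This row had 3, 0 and 1 counts in baseline NPSC, and complement NPSC had 4, 3 and 5 (0.435, 0 and 0.132 CPM, then 0.890, 0.716 and 0.868 CPM). It was too low to be tested, and the baseline libraries were all at or below a floor of 3 counts. Over the groups this was 4 counts against 12. Every complement library was higher on the CPM scale than every baseline library, at a depth where 1 or 2 counts decide the order.

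No gene around mir-212 was called by either tool. Within 250 kb of the locus the files hold 10 other genes, 9 of which were tested, and 0 were called in edgeR's quasi-likelihood test, against 0.103% of all tested genes. The DESeq2 Wald test also called 0 of the 8 to which it gave an adjusted p, and 1 of the 9 had an unadjusted p under 0.05 in edgeR, where 15.2% of all tested genes did, 4.28% with complement NPSC lower, as in that gene. Their median log2 fold change was −0.20, beside 0.02 over all tested genes. DPH1, a diphthamide synthesis gene on the opposite strand 4912 bp downstream, had 33.2, 31.1 and 33.1 CPM in baseline NPSC and 34.9, 30.5 and 38.6 CPM in complement NPSC, giving a log2 fold change of 0.10 with an SE of 0.19 (adjusted p = 0.783, edgeR). For every library the ratio of mir-212 to DPH1 counts was taken, and it was 0.122, 0.0249 and 0.0319 in baseline NPSC, against 0.312, 0.258 and 0.329 in complement NPSC. SMG6, which encodes an endonuclease of nonsense-mediated decay, ends 11161 bp upstream on the same strand as mir-212. Its levels were 48.6, 58.2 and 52.6 CPM in baseline NPSC and 44.1, 50.3 and 44.8 CPM in complement NPSC, which overlap, with a log2 fold change of −0.20 with an SE of 0.18 (adjusted p = 0.555, edgeR).

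HIC1 was the neighbour with the lowest unadjusted p. This transcriptional repressor gene lies 6286 bp upstream of mir-212 on the opposite strand. It had 29.3, 44.0 and 53.5 CPM in baseline NPSC and 29.2, 15.5 and 29.0 CPM in complement NPSC. The groups did not overlap, with complement NPSC lower, as in 8.14% of all tested genes, but baseline replicate 1 lay next to complement replicates 1 and 3. Its log2 fold change was −0.78 with an SE of 0.27 (adjusted p = 0.271, edgeR), in the direction opposite to that of mir-212. Without baseline replicate 1 it was −1.0 and was called (adjusted p = 0.0393, edgeR). The alternatives gave adjusted p between 0.000447 and 1.00. Whether the counting used strand is not given, so reads from opposite strands of a stretch cannot be told apart.

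Farther downstream of mir-212, RPA1 (a subunit of the single-strand DNA binding complex), MYO1C (an unconventional myosin) and PRPF8 (a core spliceosome protein) had log2 fold changes of −0.30, −0.25 and −0.45, none of them called (adjusted p = 0.418, 0.625 and 0.433, edgeR). PRPF8 was called without complement replicate 3 (adjusted p = 0.0453, edgeR), within a range over the alternatives of 0.0453 to 1.00. The rows without a symbol, ENSSSCG00000017824 and ENSSSCG00000017823, had log2 fold changes of 0.15 and 0.17 (adjusted p = 0.657 and 0.803, edgeR). ENSSSCG00000019524, a row of 108 bp on the opposite strand within the span of SMG6, had 0 to 4 counts per library and was not tested.

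Mir-221 lies in a stretch with few genes. The files hold 2 other genes within 250 kb of it, the row beside it and ENSSSCG00000026115, which covers 75 bp and had 0, 2 and 0 counts in baseline NPSC, and complement NPSC had 2, 1 and 1. Neither had enough counts to be tested. The nearest tested row is ENSSSCG00000031030, 303472 bp downstream on the same strand, with 1.74, 1.70 and 1.05 CPM in baseline NPSC and 2.67, 4.53 and 1.39 CPM in complement NPSC. These overlap, with a log2 fold change of 0.90 with an SE of 0.56 (adjusted p = 0.414, edgeR), and its highest values were in the libraries with the highest olfactory receptor density. DIPK2B, 470181 bp downstream, had a log2 fold change of 0.40 with an SE of 0.25 (adjusted p = 0.419, edgeR). Its complement libraries lay above its baseline libraries without overlap, as in 8.95% of all tested genes. KDM6A, the X-linked histone demethylase gene 570046 bp downstream, had a log2 fold change of −0.25 with an SE of 0.23 (adjusted p = 0.567, edgeR). ENSSSCG00000012264, 663724 bp upstream, had a log2 fold change of 0.21 with an SE of 0.36 (adjusted p = 0.746, edgeR). In a window of 1000 kb, 6 genes were tested, with 0 called and 0 at an unadjusted p under 0.05 in edgeR. The shares over all tested genes were 0.103% and 15.2%, at which 6 genes are too few to read anything from.

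**Figure D2:**
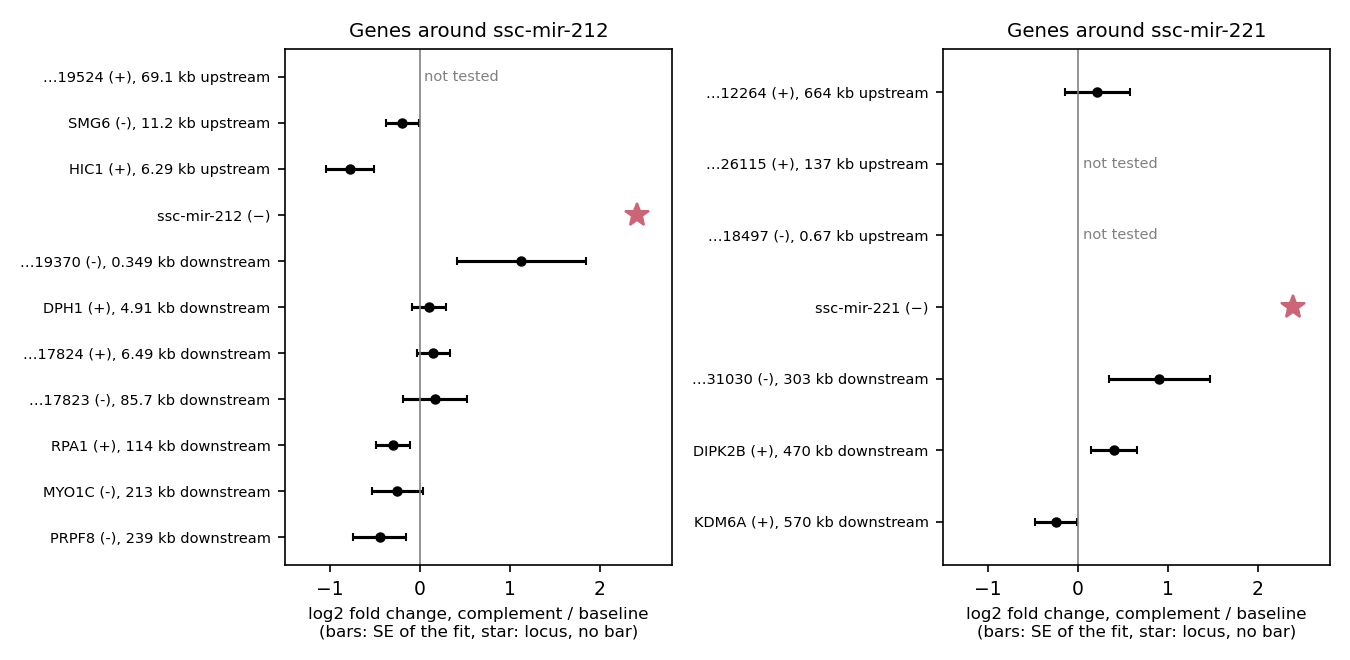
Log2 fold change (complement NPSC over baseline NPSC, with the SE of the edgeR fit) of the genes around ssc-mir-212 (left) and ssc-mir-221 (right), ordered from upstream at the top to downstream at the bottom, with the gap to the locus and the strand beside each name. The loci themselves, chosen on this contrast, are drawn as stars without a bar at 2.41 and 2.40, and among the genes around mir-212 only the adjacent row ENSSSCG00000019370 lies above 1.

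The other short rows of the files gave a scale for these values. The name tables pair a microRNA symbol with only 12 other rows, so the comparison class was every single-exon row of 50 to 150 bp, 2551 besides the 2 loci. Rows of this shape can be microRNA hairpins or other small RNA genes, and the files do not say which. In each library 34.8% to 44.8% of these rows had 0 counts, and the median row had 1 or 2. By counts, not per length, mir-212 was above 75.8% to 95.8% of them in baseline NPSC and above 98.2% to 98.9% in complement NPSC. Mir-221 was above 81.9% to 88.0% in baseline NPSC and above 96.0% to 98.4% in complement NPSC.

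Of the 2551 rows, 334 were tested, and 0 were called by edgeR, against 0.103% of all tested genes. DESeq2 called 0 of the 109 with an adjusted p, against 0.424% of all genes with one. At such shares these 0 calls say little about short rows. An unadjusted p under 0.05 in edgeR was found in 27 rows (10 higher and 17 lower, against 10.9% and 4.28% of all tested genes). Groups that did not overlap made up 23 rows with complement NPSC higher (6.89%, against 8.95% of all tested genes) and 28 rows with complement NPSC lower (8.38%, against 8.14%). Their median log2 fold change was −0.01, and the middle 90% lay between −0.78 and 1.22. Mir-212 and mir-221 lay above every one of them in log2 fold change, which follows in part from how they were chosen. The rank also depends on the count filter, which a row can pass through the condition where it is high. Both loci, low in baseline NPSC, passed it through complement NPSC, so the rank is a description only. The largest value in size among the others was 2.01 with an SE of 0.74 (adjusted p = 0.282, edgeR), in ENSSSCG00000019173, which had 13, 4 and 1 counts in baseline NPSC, and complement NPSC had 23, 19 and 7. ENSSSCG00000019132, ENSSSCG00000029445, ENSSSCG00000019269 and ENSSSCG00000030551 followed, with log2 fold changes of 1.97, 1.91, 1.65 and 1.60 (adjusted p = 0.267, 0.271, 0.290 and 0.305, edgeR). In ENSSSCG00000029445 the counts were 47, 36 and 5 in complement NPSC, so complement replicate 3 was low there, where mir-212 and mir-221 had their highest values. Without complement replicate 3, 32 of 505 such rows were called (6.34%), of which 29 were higher. In that fit 8.35% of all tested genes were called, 6.23% higher and 2.12% lower.

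The short rows with the most counts had log2 fold changes nearer to 0. ENSSSCG00000021356, ENSSSCG00000025162 and ENSSSCG00000024853 had 1976 to 5637, 824 to 3238 and 967 to 2838 counts per library and log2 fold changes of 0.43, 0.61 and 0.18 (adjusted p = 0.547, 0.433 and 0.749, edgeR). ENSSSCG00000028966 and ENSSSCG00000029854 had log2 fold changes of −0.54 and −0.67 (adjusted p = 0.292 and 0.264, edgeR), with groups that did not overlap.

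**Figure D3:**
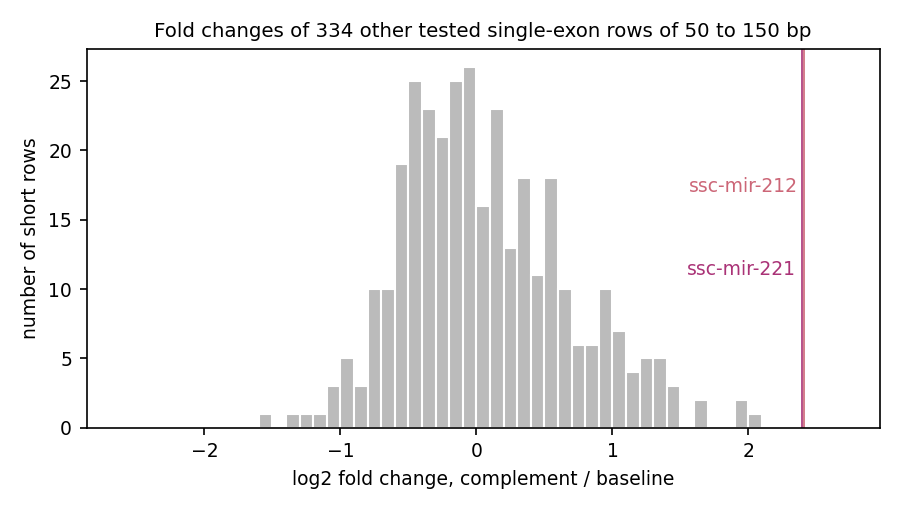
Histogram of the log2 fold change (complement NPSC over baseline NPSC) of the 334 other tested single-exon rows of 50 to 150 bp, in bins of 0.1 (y axis, number of rows). The lines mark ssc-mir-212 at 2.41 and ssc-mir-221 at 2.40, to the right of every other row, the highest of which is at 2.01. Only rows past the count filter are drawn, and a row can pass it through the condition where it is high.

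Among the 12 rows with a microRNA symbol, 4 had enough counts to be tested and 0 were called by edgeR, with 0 at an unadjusted p under 0.05. Over all tested genes these shares were 0.103% and 15.2%, at which 4 rows are too few to read anything from. DESeq2 gave none of the 4 an adjusted p. Ssc-mir-425 had 10, 10 and 9 counts in baseline NPSC, and complement NPSC had 9, 8 and 13. On the CPM scale this was 1.45, 1.55 and 1.19 against 2.00, 1.91 and 2.26, without overlap, giving a log2 fold change of 0.56 with an SE of 0.52 (adjusted p = 0.556, edgeR). MIR142, a microRNA of blood cells, had 16, 5 and 7 counts against 2, 14 and 13, a log2 fold change of 0.58 (adjusted p = 0.638, edgeR). Ssc-mir-18a, of the miR-17-92 cluster, and ssc-mir-421 had log2 fold changes of −0.95 and −0.92 (adjusted p = 0.400 and 0.427, edgeR). Ssc-mir-18a had 18, 10 and 21 counts in baseline NPSC, and complement NPSC had 8, 4 and 5, and ssc-mir-421 had 19, 10 and 20 and then 2, 5 and 11. The CPM of both overlap between the conditions.

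The machinery that turns a primary transcript into a mature microRNA was measured in the same libraries. Of 21 genes listed, 12 were matched and tested, and 0 were called by edgeR or DESeq2, with 0 at an unadjusted p under 0.05, beside 0.103% and 15.2% of all tested genes in edgeR. Their median log2 fold change was −0.27, and 2 of the 12 were above 0. DROSHA, the nuclear nuclease, had 109 ± 10.8 CPM (baseline NPSC, SD, n = 3) and 86.4 ± 16.3 CPM (complement NPSC), giving a log2 fold change of −0.33 with an SE of 0.20 (adjusted p = 0.407, edgeR). DGCR8, its partner, had a log2 fold change of −0.30 (adjusted p = 0.473, edgeR), as did SRRT, which links the cap-binding complex to DROSHA (−0.30, adjusted p = 0.477, edgeR). DICER1 had 172 ± 23.8 and 130 ± 28.8 CPM (SD, n = 3), a log2 fold change of −0.41 with an SE of 0.22 (adjusted p = 0.373, edgeR), and its partner TARBP2 a log2 fold change of −0.26 (adjusted p = 0.457, edgeR). TARBP2 was the one gene of the 12 whose groups did not overlap, with complement NPSC lower, or 8.33% against 8.14% of all tested genes. Without complement replicate 3, 9 of the 12 had an unadjusted p under 0.05 and 0 were called, in a fit where 39.2% of all tested genes had such a p.

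Of 30 CREB factor and CREB target genes, 21 were matched and 20 tested, and 6 were called by edgeR, all higher, against 0.0914% of all tested genes called higher. The DESeq2 Wald test called 7, all higher, where it called 0.424% of all genes with an adjusted p in either direction. The list was written with earlier results of these libraries known, and the study had listed all 6 as differentially expressed on these libraries, so the count is not independent evidence of a direction. The median log2 fold change of the 20 was 0.71. In 10 of the 20 all complement libraries were above all baseline libraries, against 8.95% over all tested genes.

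The called genes were PTGS2 (prostaglandin synthesis), the orphan nuclear receptor genes NR4A3 and NR4A2, the zinc finger genes EGR3 and EGR1, and JUNB (an AP-1 subunit). PTGS2 had 50.02, 51.4 and 24.8 CPM in baseline NPSC and 291, 442 and 725 CPM in complement NPSC, giving a log2 fold change of 3.53 with an SE of 0.37 (adjusted p = 0.000677, edgeR). NR4A3 had 25.1, 25.9 and 20.95 CPM and then 176, 136 and 251 CPM, giving a log2 fold change of 2.97 with an SE of 0.25 (adjusted p = 7.27e-05, edgeR). EGR3 had 10.0, 15.8 and 8.70 CPM and then 48.5, 30.3 and 63.9 CPM, giving a log2 fold change of 2.06 with an SE of 0.29 (adjusted p = 0.00963, edgeR). All of these, like mir-212 and mir-221, were highest in complement replicate 3. EGR1, JUNB and NR4A2 had log2 fold changes of 2.02, 1.43 and 1.21 (adjusted p = 0.0455, 0.0455 and 0.0434, edgeR). None of these was called without baseline replicate 2 or without baseline replicate 3. EGR1 and JUNB were also not called with DESeq2 size factors. JUNB and NR4A2 were not called without complement replicate 1, nor NR4A2 without complement replicate 2. The number called was 3 without baseline replicate 2 or 3 and 10 without complement replicate 3, of which 2 were lower, in a fit where 8.35% of all tested genes were called. PTGS2, NR4A3 and EGR3 were called in each of the 12 alternatives.

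Of the coactivators of CREB, EP300, among the members with the highest counts, had a log2 fold change of −0.38 (adjusted p = 0.482, edgeR), and CREBBP one of −0.41 (adjusted p = 0.416, edgeR). These were the 2 genes called lower without complement replicate 3 (adjusted p = 0.0421 and 0.0389, edgeR), and the adjusted p of each ranged up to 1.00 over the alternatives. FOS, another immediate early target of CREB, had 101, 231 and 123 CPM in baseline NPSC and 120, 157 and 178 CPM in complement NPSC, which overlap. CREBBP and FOS were singled out after their values were seen. CREB1, CREM, FOSB, NR4A1 and SIK1 were not matched to a row by symbol.

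Of 11 NF-kB and AP-1 factor genes, 6 were matched and tested. Some members of these families are known to act on the miR-221 and miR-222 locus, without this being established for each listed gene. RELB, JUN, JUND, FOSL2 and BATF were not matched by symbol. Of the 6, 0 were called by edgeR or DESeq2, where edgeR called 0.103% of all tested genes, a share at which 6 genes are too few to read anything from. The list does not hold JUNB, which was called, or FOS, which are AP-1 subunits too and were counted with the CREB targets. Of the 6, 3 had an unadjusted p under 0.05, all higher, against 10.9% of all tested genes: NFKB1, REL and MAFF. In 4 of the 6 complement NPSC lay above baseline NPSC without overlap, against 8.95% of all tested genes, and the median log2 fold change was 0.49. NFKB1 had 14.2, 18.1 and 13.3 CPM in baseline NPSC and 31.4, 23.4 and 55.2 CPM in complement NPSC, giving a log2 fold change of 1.28 with an SE of 0.29 (adjusted p = 0.177, edgeR), and the alternatives gave adjusted p between 5.28e-08 and 0.361. It was called with the replicate block, with the olfactory receptor density as a covariate, without complement replicates 1 and 2 and without baseline replicate 1 (adjusted p = 0.0393, edgeR), and not in the other alternatives. The fit without complement replicates 1 and 2 keeps 1 complement library, replicate 3, and assumes that it varies like the baseline libraries. REL and MAFF had log2 fold changes of 0.54 and 0.61 (adjusted p = 0.306 and 0.282, edgeR). RELA and FOSL1, the members with the highest counts, had log2 fold changes of −0.09 and 0.44 (adjusted p = 0.827 and 0.427, edgeR).

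Reported targets of the mature microRNAs were also counted. Of 14 targets of miR-132 and miR-212, 10 were matched and tested and 0 were called by edgeR or DESeq2, and 1, IRAK4, had an unadjusted p under 0.05, where 0.103% of all tested genes were called by edgeR and 15.2% had such a p. Their median log2 fold change was −0.33, beside 0.02 over all tested genes, and 3 of the 10 were above 0. IRAK4, a kinase of Toll-like receptor signaling, had 15.4, 20.3 and 23.7 CPM in baseline NPSC and 15.6, 9.30 and 13.0 CPM in complement NPSC, which overlap, a log2 fold change of −0.64 with an SE of 0.28 (adjusted p = 0.309, edgeR). RASA1, a Ras GTPase-activating protein, and ARHGAP32 had log2 fold changes of −0.45 and −0.40 (adjusted p = 0.356 and 0.390, edgeR). Over the alternatives the log2 fold change ran from −0.82 to −0.41 for IRAK4, from −0.73 to −0.01 for RASA1 and from −0.63 to −0.09 for ARHGAP32. Any part of the mature microRNAs in these values was not tested. Without complement replicate 3, 2 of these targets were called, both lower: EP300 and RASA1, in a fit where 2.12% of all tested genes were called lower. RASA1 had an adjusted p of 0.0411 (edgeR) in a range of 0.0411 to 1.00 over the alternatives.

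Of 18 targets of miR-221 and miR-222, 12 were matched and tested and 0 were called by edgeR or DESeq2, and 1 had an unadjusted p under 0.05, again against 0.103% and 15.2% of all tested genes. Their median log2 fold change was −0.11. The gene with that p was ICAM1, a leukocyte adhesion molecule, with 29.0, 24.0 and 29.5 CPM in baseline NPSC and 42.7, 37.2 and 61.1 CPM in complement NPSC. These do not overlap, and the log2 fold change was 0.78 with an SE of 0.22 (adjusted p = 0.261, edgeR), in the same direction as mir-221. ICAM1 was called only with the replicate block (adjusted p = 0.000448, edgeR), a fit with 1575 calls over all tested genes. FOXO3, in both target lists, lay lower without overlap (log2 fold change −0.27, adjusted p = 0.434, edgeR). Each direction was thus 1 of 12 (8.33%), against 8.95% higher and 8.14% lower over all tested genes. KIT had 278 ± 72.8 CPM (baseline NPSC, SD, n = 3) and 209 ± 77.5 CPM (complement NPSC), giving a log2 fold change of −0.41 with an SE of 0.29 (adjusted p = 0.457, edgeR). SOCS1, an inhibitor of cytokine signaling, had a log2 fold change of −0.50 (adjusted p = 0.418, edgeR) and ETS1, a transcription factor, one of 0.08 (adjusted p = 0.888, edgeR). CDKN1B and TIMP3 were not matched by symbol.

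**Figure D4:**
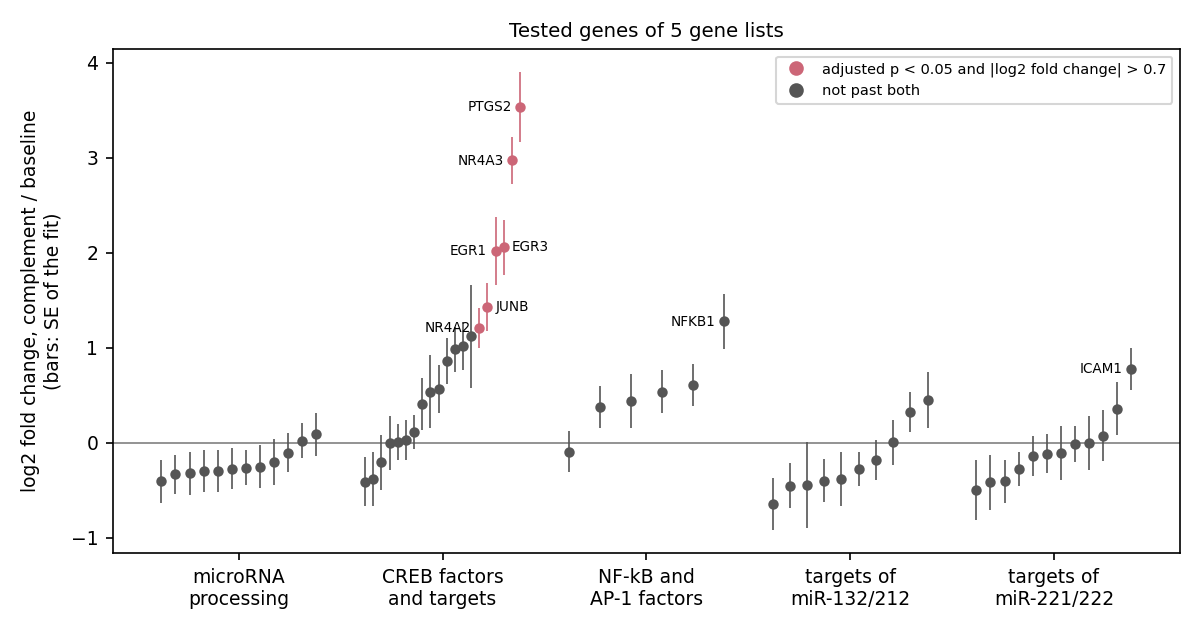
Log2 fold change (complement NPSC over baseline NPSC, with the SE of the edgeR fit) of every tested gene of 5 gene lists, sorted within each list, with genes past an adjusted p of 0.05 and a log2 fold change of 0.7 in red. Such genes, 6 in number, are found only in the list of CREB factors and targets, where PTGS2 is highest at 3.53.

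The genes whose levels over the 6 libraries were most like those of each locus were listed by Pearson's r of log2 CPM, as a description that rests on 6 points and shares the step between conditions. For mir-221 they were GEM, a small GTPase and immediate early gene (r = 0.992), BCKDHA, of branched-chain amino acid breakdown (0.991), CCL2, a monocyte chemokine (0.989), DUSP10, a MAP kinase phosphatase (0.987), and ENSSSCG00000011106 (0.986). GEM had 17, 13.6 and 17.3 CPM in baseline NPSC and 31.4, 35.3 and 50.7 CPM in complement NPSC. For mir-212 they were rows without a symbol: ENSSSCG00000013904 (0.996), ENSSSCG00000031056 (0.993), ENSSSCG00000020755 (0.989), ENSSSCG00000019924 (0.985) and ENSSSCG00000021518 (0.985). Each of these, like mir-212, was higher in baseline replicate 1 than in the other baseline libraries. The r between mir-212 and mir-221 was 0.873, with 409 genes nearer to mir-212 than mir-221 was. With r over 0.9 there were 234 genes for mir-212 and 133 for mir-221.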

How the data were processed

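RNA of 3 baseline and 3 complement NPSC libraries was sequenced as paired reads of 150 bp. Per the submitters' processing notes, reads were trimmed with Trimmomatic 0.36, aligned with STAR 2.5.2b and counted per gene with featureCounts of Subread 1.5.2. The authors deposited raw counts per Ensembl gene and library, with gene coordinates, and these are the only values used. The genome build and the strand setting are not given in the sources used here, and which of the library kits described (poly(A) selection, ribosomal RNA depletion, small RNA) gave these libraries is not stated. Symbols came from a table of Ensembl pig names, which matched 11804 of 25149 genes.

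Groups were taken from the sample labels. The counts were filtered (filterByExpr), scaled by TMM and tested over 17512 genes with edgeR 4.0.16 (quasi-likelihood F-test, R 4.3.3) and Benjamini-Hochberg adjustment. DESeq2 1.42.0, whose Wald test the study used, served as an alternative. The SE of a log2 fold change is its size divided by the square root of F. Intervals for single libraries are exact Poisson intervals at 95% and, since reads carry no molecular identifiers, cover counting error only, as does the floor of 3 counts. The fit was tested on simulated counts.

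The loci, gene lists and tests were chosen with earlier results of these data known. Named genes are the genes within 250 kb of a locus and the 3 nearest on each side, the called members of each list with the 3 of smallest p and the 2 of highest mean CPM, the 5 short rows of highest mean CPM and the 5 of largest fold, and the 5 genes most correlated with each locus (log2 CPM, prior count 2). Fewer than 50 microRNA symbols were matched, so single-exon rows of 50 to 150 bp formed the comparison class. Alternatives were DESeq2 size factors, DESeq2, no filter, a replicate block, each library left out, windows of 100 and 1000 kb and, chosen after the data were seen, the olfactory receptor density as a covariate, complement replicates 1 and 2 left out, and microRNA symbols only.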

Additional observations from a re-analysis of the deposited data

How the results depend on the processing

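The loci rest on 41 and 25 baseline counts, and for mir-212 the baseline libraries also differed by more than counting error. Leaving out 1 library moved the log2 fold change of mir-212 between 2.03 and 3.47 (highest without baseline replicate 1) and that of mir-221 between 1.98 and 2.59 (lowest without complement replicate 3). For mir-221 it was 2.90 with the olfactory receptor density as a covariate and 2.91 without complement replicates 1 and 2. No direction of either locus changed in any alternative run. Over all genes, 18 calls became 64 with DESeq2, 31 with no filter, 63 with the olfactory receptor covariate, 1575 with the replicate block, and 9 to 1540 with 1 library left out (327 without baseline replicate 1, 9 without baseline replicate 2, 1540 without complement replicate 3). The cause was not tested. Other short rows, 0 called, gave 11 with the block and 0 to 32 with 1 library left out, the 32 without complement replicate 3. The genes near mir-212, 0 called, gave 1 with the block (HIC1) and 0 to 1 with 1 library left out (HIC1 without baseline replicate 1, PRPF8 without complement replicate 3). The CREB list, 6 called, gave 3 to 10 with 1 library left out. The NF-kB and AP-1 list, 0 called, gave 1 with the block, 2 with the covariate, 1 without complement replicates 1 and 2 (a fit with 1 complement library, assumed to vary like the baseline libraries), and 0 to 1 with 1 library left out, the 1 being NFKB1 without baseline replicate 1. The miR-132 and miR-212 targets, 0 called, gave 0 to 2 with 1 library left out, and the miR-221 and miR-222 targets, 0 called, gave 1 with the block (ICAM1, adjusted p = 0.000448, edgeR, in a range of 0.000448 to 0.647). The microRNA processing genes gave 0 calls in every alternative run, although those at an unadjusted p under 0.05 went from 0 to 9 without complement replicate 3, and the microRNA symbols alone and, near mir-212, the windows of 100 and 1000 kb also gave 0 calls. The genes within 250 kb of mir-221 were too low to be tested in most fits, so their 0 calls say nothing.

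Replicate numbers are shared by the conditions, but the labels do not say that a number marks a shared culture. Deviations from the group means correlated at 0.456, 0.0302 and 0.482 between libraries of the same number (replicates 1, 2 and 3). Between libraries of different numbers the values were 0.284, 0.0665, −0.138, −0.325, −0.379 and −0.501. Baseline replicate 2 was nearer to complement replicate 3 (0.0665) than to complement replicate 2. These values do not settle whether a number marks a shared culture. The main fit did not use the pairing, and the replicate block was run as an alternative. Under the replicate block the log2 fold changes were 2.56 for mir-212 and 2.36 for mir-221.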
